A study of Oryctolagus cuniculus with 12 samples.

Results

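The ADAM and ADAMTS metalloproteases were taken from the authors' gene table of rabbit conjunctiva by name. Rows named ADAM, ADAMTS or ADAMTSL with a number, or ADAMDEC, were kept when they held at least 10 counts in 3 libraries. The name matched 43 of the 20566 genes of the table, and 36 of these passed and are the members described here. RNA was measured in 12 libraries of conjunctiva from female Japanese white rabbits, about 3 months old. The right eyes underwent trabeculectomy (TL) with mitomycin C, an operation in which aqueous humor is led under the conjunctiva into a filtering bleb, and bleb conjunctiva was taken after 3 hours (TL3h), 3 days (TL3d) or 14 days (TL14d), with 3 libraries at each time. The operated eyes also received a betamethasone injection and antibiotic ointment at the end of surgery. Conjunctiva of the left eyes, which had no operation, gave the 3 control libraries, so surgery, mitomycin C and betamethasone cannot be told apart in any comparison with it. Which left eye belonged to which operated eye is not given in the sources used here, so the groups were compared as unpaired samples, and the p-values measure the spread between these libraries.

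ADAM proteins are membrane proteases that cut the outer part off other membrane proteins, a process called shedding, and so release growth factors, cytokines and receptors from the cell surface. Some ADAM proteins lack the residues needed for catalysis and act in adhesion instead. ADAMTS proteins are secreted and bind the extracellular matrix, where different members cut the large proteoglycans aggrecan and versican, remove the N-propeptide of fibrillar procollagens, or take part in building fibrillin microfibrils. ADAMTS-like proteins share the ancillary domains but have no protease domain. TIMP proteins, above all TIMP3, inhibit several of these enzymes. In a filtering bleb, turnover of matrix and scarring under the conjunctiva are known to bear on how long the drainage lasts.

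Total counts per library ranged from 27111276 to 38591374. Levels are counts scaled to a common library size (CPM) after TMM normalization, which corrects for differences in composition between libraries. The TMM factors were 0.768 to 0.783 for TL3h and 1.03 to 1.13 for the remaining 9 libraries. A level of 0 allows up to 3 counts, or 0.0712 to 0.124 CPM, for counting error only. Of 9 listed epithelial markers 6 were in the table, and their summed level was 2853 to 10900 CPM in the 12 libraries. KRT5 alone was at 1258 to 9070 CPM. The sum shows that epithelium was present but cannot check the label conjunctiva, since these markers do not set it apart from other surface epithelium. The libraries of a group were not alike in their cell markers. Summed fibroblast markers (9 genes) were 8765, 24640 and 54090 CPM in control replicates 1, 2 and 3, 70360 to 88990 CPM at 3 hours, 1119, 8797 and 45970 CPM at 3 days, and 18420, 7467 and 39900 CPM at 14 days. TL14d replicate 1 had the lowest summed macrophage markers of its group, at 91.8 CPM against 451 and 280 CPM. Summed skeletal muscle markers were 181 CPM in control replicate 2, 265 CPM in TL3d replicate 3 and 0 to 6.80 CPM in the other 10 libraries. In bulk tissue, fewer cells of a type and less RNA per cell cannot be told apart.

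Of the 36 members, 26 held at least 10 counts in all 12 libraries. Just inside the rule lay ADAM21, with at least 10 counts in 3 libraries and a highest count of 21, and ADAMTS13, with 4 such libraries and a highest count of 28. For ADAM21 these were control replicates 1 and 2 and TL14d replicate 1. For ADAMTS13 they were TL3d replicates 1 and 2 and TL14d replicates 2 and 3. No TL3h library helped either gene to pass, so the rule itself favoured a low level at 3 hours in both. Just outside lay ADAMTS20, which held 95 and 105 counts in TL14d replicates 2 and 3 and 0 to 8 counts in every other library, and ADAM11, with a highest count of 16. The remaining rows that did not pass were ADAM1A and ADAM30, with highest counts of 7 and 1, and ADAM6, ADAM6A and ADAM7, which held no count. All 36 members entered the fit of 14835 genes. On OryCun2.0, the assembly the authors used, 24 members lie on chromosomes and 12 on unplaced sequence. Members that lie next to each other are ADAMTS15 and ADAMTS8 on chromosome 1, 21.1 kb apart on opposite strands, ADAMTS1 and ADAMTS5 on chromosome 14, 67.8 kb apart on the same strand, and ADAMDEC1 and ADAM28 on chromosome 2, 7.06 kb apart on the same strand.

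Levels of different genes can be compared only per length, for which the authors' FPKM values were used. ADAM9, a widely expressed membrane protease, had the highest FPKM of the family in the control group, at 138 ± 3.26 (SD, n = 3), and all its control libraries lay above those of the next member. ADAM10, the sheddase that starts Notch signaling, followed at 48.8 ± 8.35 FPKM, then ADAMTS2 at 39.98 ± 38.1, ADAMTSL4 at 35.8 ± 21.8, ADAMTS1 at 33.3 ± 27.6 and ADAM15 at 30.3 ± 5.49 FPKM (SD, n = 3 each). Among these last 5, each overlapped the one after it, and all control libraries of ADAM15 lay above those of ADAM17, the next in order. Of the 35 neighbouring pairs in the order of control FPKM, 2 had no overlap between libraries. At 3 hours, ADAM9 was still first at 150 ± 18.4 FPKM, and ADAMTS1 was second at 101 ± 16.5 FPKM (SD, n = 3 each). ADAMTS4 went from 0.601 ± 0.354 FPKM in unoperated eyes to 48.0 ± 28.2 FPKM at 3 hours (SD, n = 3 each).

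At 3 hours, 8 of the 36 members differed from the control group in the edgeR quasi-likelihood test at a q (Benjamini-Hochberg adjusted p-value over all genes tested) of at most 0.05. Of all genes tested, 45.4% were called in this comparison, so the members' share of 22.2% was below the background. Of the 8, 7 were higher and 1 was lower, whereas 23.2% of all genes were higher and 22.2% were lower. The 7 higher members were the matrix proteases ADAMTS4, ADAMTS9 and ADAMTS1 and the membrane proteases ADAM8, ADAM19, ADAM17 and ADAM9. The member that was lower was ADAM21, which is known from testis. The median log2 fold change of the members was 0.37, beside 0.02 over all genes. Under normalization by library size alone, which moved the median of all genes to -0.47, 10 members were called, 4 higher and 6 lower, and the median of the members was -0.08. The main fit used edgeR with TMM on all 12 libraries without a replicate block. It called none of the 3 procollagen N-proteinases, the 2 proteases of COMP, the 4 ADAM proteins without protease activity or the 3 ADAMTS-like proteins. ADAM2 was called lower under library size alone (q = 0.0442), with only the 6 libraries compared (q = 0.0323) and without TL14d replicate 1 (q = 0.0448). With the replicate number as a block ADAMTS2 was called higher (q = 0.0395). Leaving out control replicate 3 and TL14d replicate 1 together called ADAM2, ADAMTSL4 and ADAMTS3 (q = 0.0319, 0.0426 and 0.043). ADAMTS14, a procollagen N-proteinase, was at 1.15, 5.10 and 2.42 CPM at 3 hours and at most 0.677 CPM in the control libraries (log2 fold change 3.18, q = 0.0666), and it passed under 6 of 21 alternatives, DESeq2 among them (q = 0.0126). The libraries of the 2 groups did not overlap for 15 members (41.7%), beside 57.3% of all genes.

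**Figure D1:**
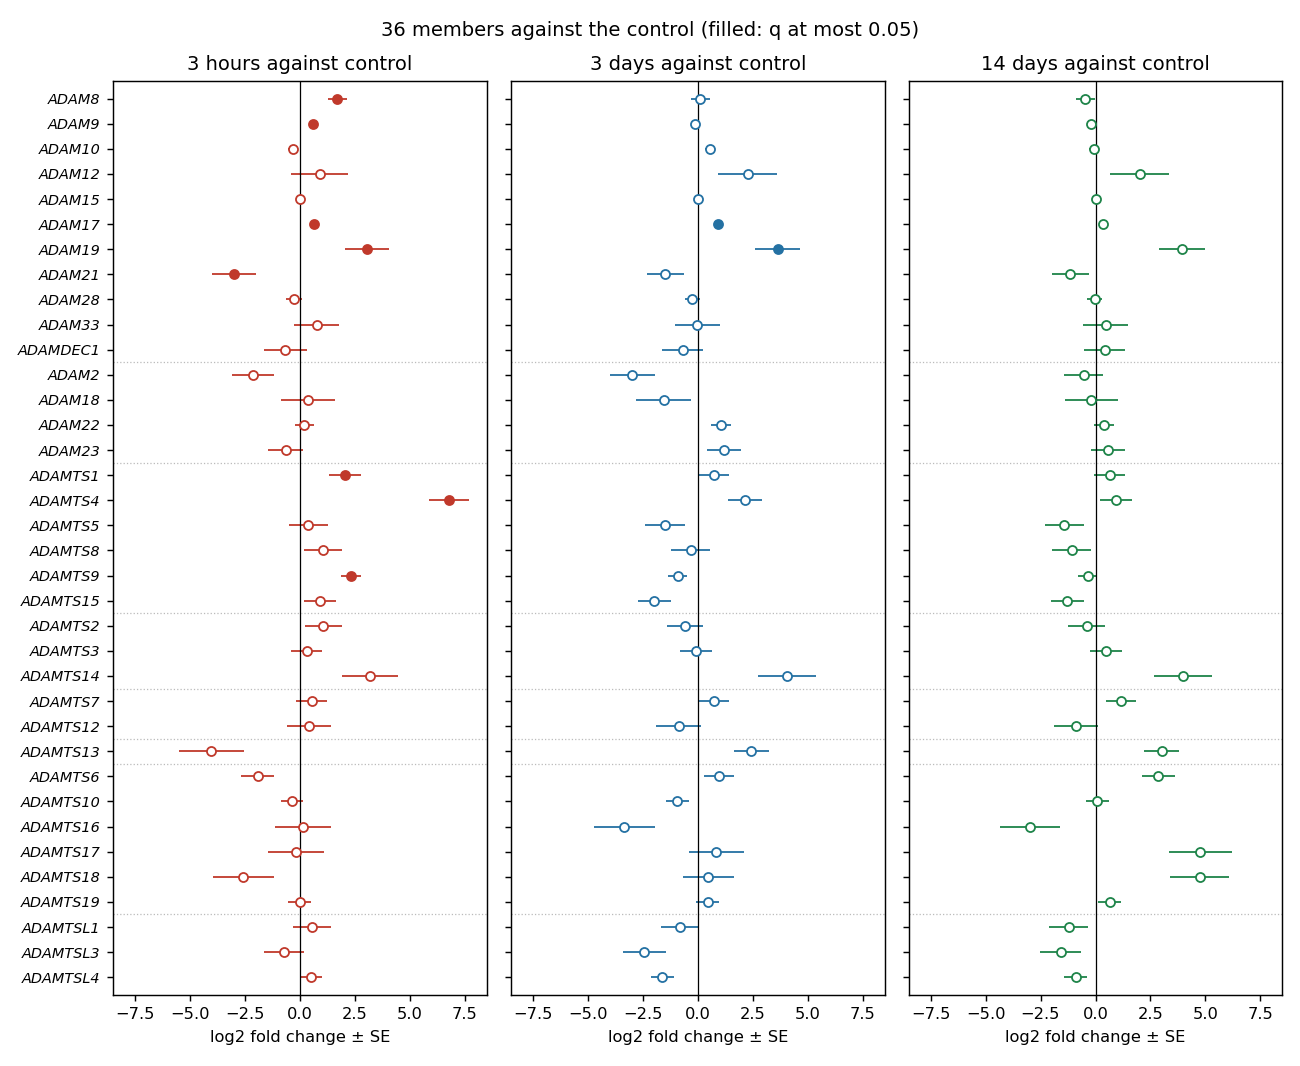
Log2 fold change with its standard error (horizontal axis) of each of the 36 members (rows, grouped by role) in TL3h, TL3d and TL14d against the control group (n = 3 libraries per group). Filled points have q of at most 0.05: 8 members at 3 hours, 2 at 3 days and 0 at 14 days.

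ADAMTS4 (gene ID 100008765, chromosome 13, 31782749 to 31791247, plus strand) had the largest increase of the family. It encodes an aggrecanase, which cuts aggrecan and versican. Its level was 0.807, 2.93 and 3.74 CPM in the control libraries and 215, 466 and 147 CPM in the TL3h libraries. Every TL3h library was above every control library, and the log2 fold change was 6.79 (SE 0.914, q = 0.000299), 111-fold. At 3 days ADAMTS4 stood at 6.90, 7.58 and 18.6 CPM, all above the control libraries, with a log2 fold change of 2.15 that did not pass (q = 0.0720). This value passed under 4 of 21 alternatives, among them DESeq2 (q = 0.0152). At 14 days it stood at 1.28, 5.46 and 7.39 CPM, overlapping the control group.

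ADAMTS9 (gene ID 100339560, chromosome 9, 31611708 to 31784188, minus strand), which cuts versican, was at 24.3, 24.2 and 68.9 CPM in the control libraries. At 3 hours it was at 140, 265 and 177 CPM, above every control library (log2 fold change 2.31, SE 0.467, q = 0.00279). It had returned to 18.7, 15.4 and 27.9 CPM at 3 days, within or below the control range. ADAMTS1 (gene ID 100351590, chromosome 14, 156049325 to 156058241, minus strand), also a versican-cutting protease, was at 97.7, 69.0 and 330 CPM in the control libraries and at 761, 568 and 713 CPM at 3 hours (log2 fold change 2.04, SE 0.712, q = 0.0388). The TL3h libraries all lay above the control libraries, of which replicate 3 was the high one. The call of ADAMTS1 was lost when control replicate 1 or 2, any TL3h library, TL3d replicate 2 or TL14d replicate 3 was left out (q between 0.0512 and 0.124), and under library size alone (q = 0.0725). ADAMTS4 and ADAMTS9 were called at 3 hours under all 21 alternatives.

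The other members that cut aggrecan or versican did not pass. ADAMTS5, the other main aggrecanase, which lies next to ADAMTS1, was at 26.1, 28.9 and 163 CPM in the control libraries and at 72.7, 132 and 79.2 CPM at 3 hours, so that control replicate 3 was above all 3. ADAMTS15, which also cuts versican, was at 26.2, 26.3 and 42.2 CPM in the control libraries and at 44.9, 84.4 and 47.1 CPM at 3 hours, without overlap, but its q was 0.355. ADAMTS8, beside ADAMTS15, stayed at or below 2.61 CPM in every library. Thus 3 of the 6 members that cut aggrecan or versican were called at 3 hours, all higher, a share near the 45.4% of all genes.

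ADAM8 (gene ID 100342070, chromosome 18, 69783398 to 69792543, plus strand) is a sheddase of leukocytes. It was at 52.6, 43.7 and 20.7 CPM in the control libraries and at 148, 166 and 65.5 CPM at 3 hours, without overlap (log2 fold change 1.70, SE 0.438, q = 0.00995). The call held under all 21 alternatives. Summed neutrophil markers (7 genes) were 3.49, 8.43 and 82.5 CPM in the control libraries and 1752, 2792 and 1049 CPM at 3 hours. Within TL3h both were highest in replicate 2 and lowest in replicate 3, whereas within the control group ADAM8 was lowest in the library with the most neutrophil markers. The part of these cells in the ADAM8 level was not tested.

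ADAM19 (gene ID 100352746, chromosome 3, 38917499 to 39008024, minus strand), or meltrin beta, is a sheddase of neuregulin. Its level was 2.80, 6.25 and 12.3 CPM in the control libraries, 68.6, 66.7 and 39.1 CPM at 3 hours, and 64.5, 82.4 and 117 CPM at 3 days. No operated library of these times overlapped the control group. The log2 fold change was 3.03 at 3 hours (SE 0.996, q = 0.0303) and 3.63 at 3 days (SE 1.02, q = 0.0381). Leaving out control replicate 1 or 2 or TL3h replicate 1 or 2 ended the call at 3 hours (q between 0.0670 and 0.0981). At 3 days the call was lost without control replicate 1 or 2, any TL3h library, any TL3d library, or TL14d replicate 3 (q between 0.0508 and 0.116).

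ADAM17 (gene ID 100101613, unplaced sequence, 277653550 to 277709321, plus strand) is the sheddase of tumor necrosis factor. It was at 73.4, 72.6 and 65.3 CPM in the control libraries, at 108, 102 and 120 CPM at 3 hours and at 141, 132 and 123 CPM at 3 days, so the 9 libraries of these groups formed separate levels. The log2 fold change was 0.64 at 3 hours (SE 0.189, q = 0.0192) and 0.91 at 3 days (SE 0.190, q = 0.0169). Under library size alone the value at 3 hours fell to 0.14 (q = 0.605), while that at 3 days was 0.88 (q = 0.0212). The call at 3 hours was also lost without control replicate 2 or 3 or TL3h replicate 1 or 3 (q between 0.0501 and 0.0862), and that at 3 days without control replicate 1 or 2 or TL3d replicate 1 or 2 (q between 0.0566 and 0.0608). From 3 hours to 3 days ADAM17 was not called (log2 difference 0.27, q = 0.288), though it was under library size alone (0.745, q = 0.0135).

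ADAM9 (gene ID 100101585, unplaced sequence, 68155962 to 68289900, minus strand) was at 540, 525 and 589 CPM in the control libraries and at 796, 764 and 920 CPM at 3 hours (log2 fold change 0.59, SE 0.142, q = 0.00744). This was the smallest of the called increases and came with the narrowest spread. Under library size alone its log2 fold change was 0.09 (q = 0.637), so the increase of ADAM9 at 3 hours was not called on that scale. At 3 days it was at 501, 498 and 539 CPM, and at 14 days at 403, 520 and 501 CPM, where all 3 libraries lay below the control group without passing the test. ADAM21 held 2, 1 and 0 counts in the TL3h libraries and 14, 21 and 6 counts in the control libraries. Its control mean was 2.70-fold the highest TL3h floor of 3 counts, which leaves out the spread of the control libraries. ADAM21 was called lower (q = 0.0326), and no TL3h library had helped it to pass the member rule. Without control replicate 1 or 2 or TL3h replicate 2 or 3 this call was lost (q between 0.0675 and 0.104).

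**Figure D2:**
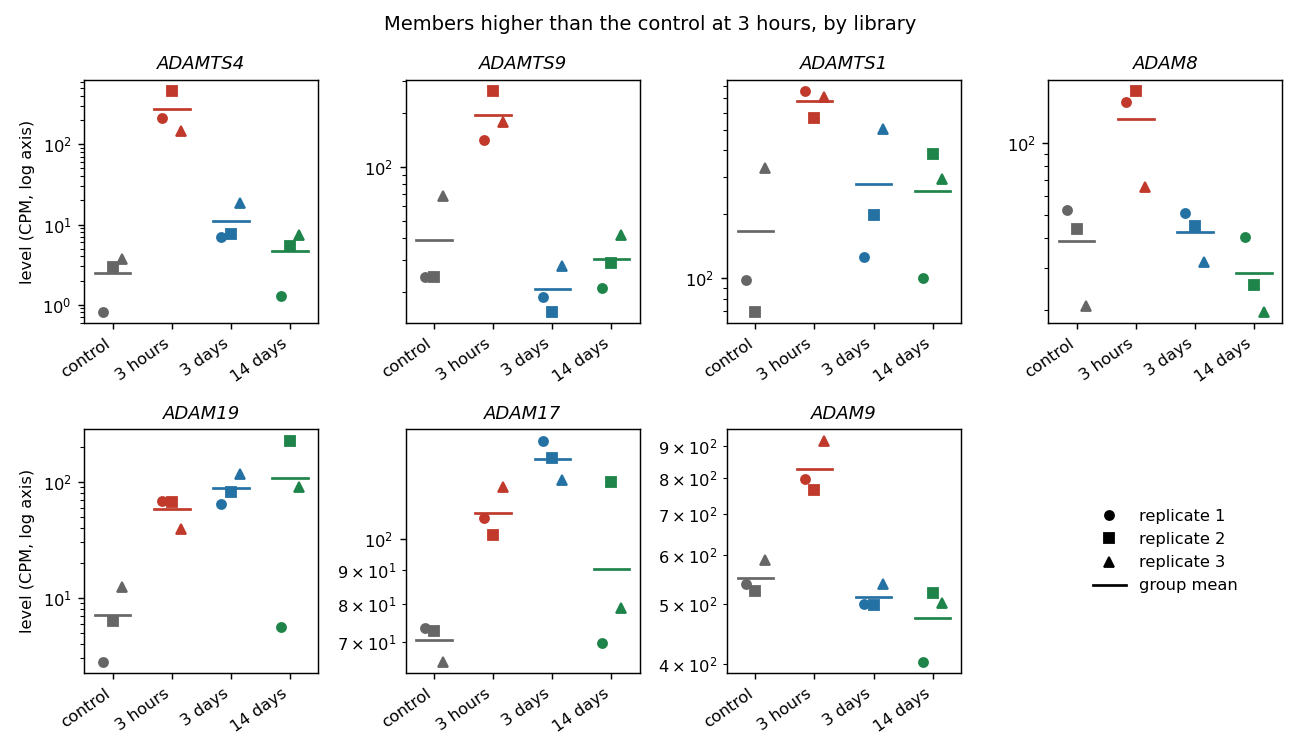
Level in CPM (log axis) of the 7 members that were higher than the control group at 3 hours, in each of the 12 libraries (symbols give the replicate, bars the group mean, n = 3). ADAMTS4, ADAM19 and ADAM17 were above every control library at 3 days, and each of them overlapped the control group at 14 days.

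The other genes of the pathway came from 5 lists chosen with earlier results of these data known. Of 8 inhibitors and clearance genes, 2 were higher and 0 lower at 3 hours (median log2 fold change 1), which is 25% beside 45.4% of all genes. TIMP1, an inhibitor of metalloproteases, was at 14.1, 30.3 and 71.0 CPM in the control libraries and at 477, 798 and 486 CPM at 3 hours (log2 fold change 3.93, q = 0.00276). SDC4, a proteoglycan of the cell surface that binds ADAMTS proteins, was at 708, 568 and 763 CPM in the control libraries and at 4194, 2348 and 4125 CPM at 3 hours (log2 fold change 2.39, q = 0.000765). Of 12 genes of activation and trafficking, 3 were higher and 2 lower at 3 hours (median 0.14), which is 41.7%. FURIN, the proprotein convertase that activates most of these enzymes, was at 74.8, 69.3 and 77.3 CPM in the control libraries and at 229, 290 and 180 CPM at 3 hours (log2 fold change 1.66, q = 0.000311). PCSK7, another convertase, had a log2 fold change of 1.30 (q = 0.000483). TSPAN33 and TSPAN5, which guide ADAM10 to the cell surface, were lower, with log2 fold changes of -1.62 (q = 0.0145) and -1.15 (q = 0.0432). The other TSPAN genes did not share this. TSPAN17 was at 62.3, 59.2 and 53.9 CPM in the control libraries and higher, at 74.9, 77 and 69.6 CPM, at 3 hours. TSPAN14 and TSPAN15 overlapped the control libraries. The call of TSPAN5 at 3 hours was lost without any 1 of the control or TL3h libraries, TL3d replicate 1 or TL14d replicate 3 (q between 0.0511 and 0.117).

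Of 22 cell surface proteins that ADAM proteins shed, 10 were higher and 2 lower at 3 hours, with a median log2 fold change of 1.02. The share called, 54.5%, lay beside 45.4% of all genes. Among those higher were AREG and HBEGF, which encode ligands of the EGF receptor, and IL6R, the interleukin-6 receptor. AREG ranged from 0.190 to 0.376 CPM in unoperated eyes and stood at 80.2, 17.9 and 24.4 CPM at 3 hours (log2 fold change 7.05, q = 0.00191). HBEGF rose from 3.59 ± 0.805 to 183 ± 85.5 CPM and IL6R from 33.9 ± 11.5 to 358 ± 109 CPM (SD, n = 3 each), with q of 0.00188 and 5.7e-05. Of the 14 matrix substrates and the 6 partners of fibrillin microfibrils tested, 0 were called at 3 hours in the main edgeR fit, which has no replicate block. In the matrix list 1 gene had an unadjusted p under 0.05 and 1 was called by DESeq2, and in the microfibril list 0 and 0. VCAN, which encodes versican, was chosen for mention after its values were seen. It was at 18.2, 30.9 and 126 CPM in the control libraries and at 312, 619 and 324 CPM at 3 hours, without overlap, and its q was 0.0529 (log2 fold change 2.84). VCAN passed at 3 hours under 7 of 21 alternatives, among them DESeq2 and the fit without control replicate 3, and its q ranged from 0.00166 to 0.154.

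At 3 days, ADAM17 and ADAM19 were called, both higher, which is 5.56% of the members. Of all genes, 17.6% were called, 10.6% higher and 7% lower. The median log2 fold change of the members was -0.05, but the median of its absolute value was 0.91, beside 0.48 over all genes. The libraries of the 2 groups did not overlap for 10 members (27.8%), beside 45.5% of all genes. The members nearest to the threshold without passing were ADAMTS14 and ADAMTSL4. ADAMTS14, which removes procollagen N-propeptides, was at 0.0949, 0.175 and 0.677 CPM in the control libraries and at 0.4997, 7.27 and 8.195 CPM at 3 days (log2 fold change 4.06, q = 0.0586). ADAMTSL4 (gene ID 100356637, chromosome 13, 41518770 to 41543118, minus strand), which is mutated in ectopia lentis and binds fibrillin, was at 94.4, 106 and 280 CPM in the control libraries and at 42.7, 51.2 and 64.1 CPM at 3 days, without overlap (log2 fold change -1.60, q = 0.0582). DESeq2 called both at 3 days (q = 0.00258 and 0.0113), and so did edgeR without TL14d replicate 1 (q = 0.0273 and 0.0378). ADAMTS14, ADAMTS2, ADAMTS12, ADAMTS16, ADAMTS5, ADAMTS17, ADAMTS18 and ADAM12 were given by library after their values were seen.

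Of the 4 lists with calls at 3 days, 12.5% (inhibitors), 25% (activation and trafficking), 18.2% (cell surface substrates) and 14.3% (matrix substrates) were called, beside 17.6% of all genes. Of the 8 inhibitors 1 was called, TIMP1, at 282, 275 and 477 CPM (log2 fold change 3.16, q = 0.0238), a call lost without control replicate 1 or 2 or TL3d replicate 1 or 2 (q between 0.0618 and 0.0860). Of the 12 genes of activation and trafficking 2 were higher and 1 lower, with a median of -0.05. FURIN was still at 215, 246 and 205 CPM (log2 fold change 1.59, q = 0.00851), and RHBDF2, the partner that carries ADAM17 through the secretory pathway, was at 28.4, 24.2 and 23.5 CPM in the control libraries and at 68.9, 73.9 and 54.3 CPM at 3 days (log2 fold change 1.37, q = 0.0142). The RHBDF2 call was lost without control replicate 2 or TL3d replicate 1 or 2 (q between 0.0512 and 0.0561). Of the 22 cell surface substrates 3 were higher and 1 lower, with a median of 0.61. The one that was lower, CX3CL1, a chemokine released by ADAM10 and ADAM17, had a log2 fold change of -1.64 (q = 0.00993). Of the 14 matrix substrates, ACAN, which encodes aggrecan, was higher (q = 0.0377), and COL2A1, the collagen of cartilage, was lower, with a log2 fold change of -6.38 (q = 0.0361). Both calls were lost when any 1 of the control or TL3d libraries or TL3h replicate 3 was left out, and that of ACAN also without TL3h replicate 1 or 2 (q between 0.0505 and 0.122). ACAN was at 0 to 0.0250 CPM in the control libraries, under the floor, and at 0.550, 0.647 and 6.89 CPM at 3 days, where replicate 3 set most of the mean. The 6 microfibril partners had 0 calls at 3 days in the main edgeR fit, with 1 gene at an unadjusted p under 0.05 and 1 called by DESeq2.

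The members varied widely between the libraries of a group, except at 3 hours. For 29 members whose mean reached 1 CPM, libraries of 1 group had a median SD of 0.866 (control), 0.326 (TL3h), 0.979 (TL3d) and 1.09 (TL14d), each on the log2(CPM + 0.5) scale. The corresponding medians of 13253 genes were 0.227, 0.255, 0.208 and 0.317. Control replicate 3 was the highest control library for 25 of the 36 members (69.4%), beside 41.1% of all genes. TL3d replicate 3 was the highest TL3d library for 28 members (77.8%), beside 42.4% of all genes. These are the libraries with the most fibroblast markers in their groups, and they also had the most macrophage, endothelium, and smooth muscle and pericyte markers. Summed macrophage markers were 606 CPM in control replicate 3 against 72.7 and 147 CPM, and summed smooth muscle and pericyte markers were 1261 CPM in TL3d replicate 3 against 66.7 and 369 CPM. ADAMTS2, the main procollagen N-proteinase, was at 41.0, 97.0 and 333 CPM in the control libraries, 262, 420 and 297 CPM at 3 hours and 26.7, 57.1 and 233 CPM at 3 days. ADAMTS12, which cuts COMP, was at 10.2, 26.1 and 142 CPM, then 65.1, 82.0 and 88.7 CPM, then 9.52, 16.6 and 71.3 CPM. In each of these members the order of the control and of the TL3d libraries was that of the fibroblast markers. At the other times it held only in part. ADAMTS2 at 3 hours and ADAMTS12 at 14 days (26.5, 9.16 and 61.3 CPM) kept the order of the markers. Replicates 1 and 2 of TL14d stood in the reverse order for ADAMTS2, and replicate 3 of TL3h was the highest for ADAMTS12 but not for the markers. The part of fibroblasts or of the other cell types in these levels was not tested.

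ADAMTS16, which cuts fibronectin, had a wide range of levels. It was at 11.5, 31.1 and 137 CPM in the control libraries, 75.4, 60.8 and 61.5 CPM at 3 hours, 0.1999, 1.20 and 16.4 CPM at 3 days, and 9.62, 1.55 and 11.4 CPM at 14 days. Its log2 fold change at 3 days was -3.33 (q = 0.115), and without TL3d replicate 3 it was -6.44 (q = 0.0264). Other members changed their calls with the same libraries. Without control replicate 3 and TL3d replicate 3 together, an alternative chosen after seeing the data, 12 members were called at 3 hours among 6897 genes called in that setting. Those added were ADAMTS2, ADAMTS5, ADAMTSL1 and ADAMTS3, with log2 fold changes of 2.19, 1.73, 1.97 and 1.58, and ADAMTS6, with -2.23, while ADAM17 was no longer called. At 3 days the 2 member calls of that alternative, among 1653 genes, were ADAMTS10 and ADAMTS16, both lower, and neither ADAM17 nor ADAM19 was called.

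**Figure D3:**
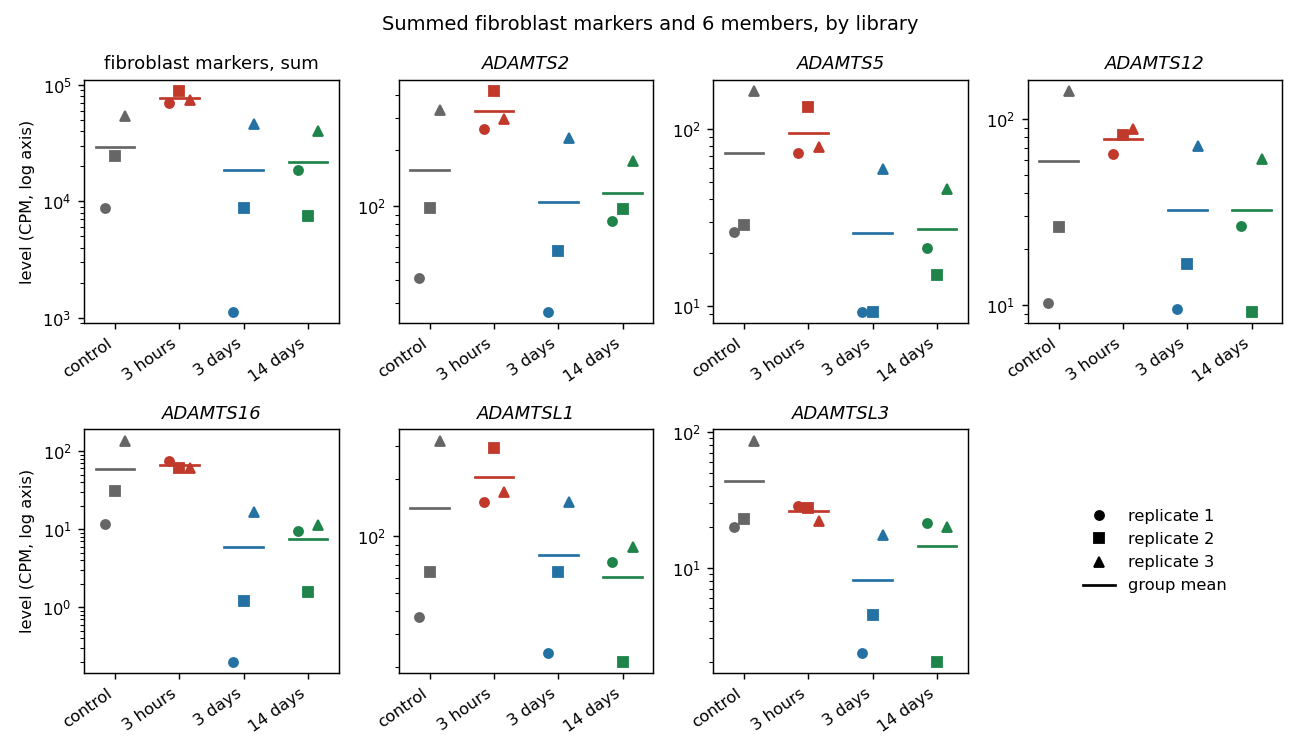
Summed level of 9 fibroblast markers and level of 6 members in CPM (log axes) in each of the 12 libraries (symbols give the replicate, bars the group mean, n = 3). Control replicate 3 and TL3d replicate 3 are the highest libraries of their groups for the markers and for each member shown.

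From 3 hours to 3 days, 9 of the 36 members (25%) differed, 3 higher and 6 lower at 3 days. Of all genes 37.3% were called, 18.4% higher and 19% lower. The control libraries enter this comparison only through the shared fit. The members that were lower at 3 days were ADAMTS4 (log2 difference -4.64, SE 0.823, q = 0.00178), ADAMTS9 (-3.23, SE 0.485, q = 0.000704), ADAMTS15 (-2.87, SE 0.785, q = 0.0165), ADAMTSL4 (-2.09, SE 0.529, q = 0.0114), ADAM8 (-1.57, SE 0.437, q = 0.0176) and ADAM9 (-0.69, SE 0.143, q = 0.00406). ADAMTS15 (gene ID 100343187, chromosome 1, 86179155 to 86204517, minus strand) fell to 4.80, 3.45 and 15.9 CPM at 3 days, below every control library. ADAMTSL4 was at 203, 290 and 180 CPM at 3 hours. The ADAMTS4, ADAMTS9 and ADAMTSL4 calls held under all 21 alternatives. ADAM9 was not called under library size alone (-0.22, q = 0.245), and neither was ADAM8 (-1.09, q = 0.0737). ADAM8 was also lost without TL3h replicate 1 or 2 or TL3d replicate 2 or 3 (q between 0.0524 and 0.0705), and ADAMTS15 without TL3h replicate 2 or TL3d replicate 1 or 2 (q between 0.0527 and 0.0621).

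The members that were higher at 3 days than at 3 hours were ADAM10, ADAMTS6 and ADAMTS13. ADAM10 (gene ID 100101614, chromosome 17, 13656179 to 13780345, plus strand) was at 202, 138 and 206 CPM at 3 hours and at 413, 345 and 240 CPM at 3 days (log2 difference 0.87, SE 0.227, q = 0.0134). Its control libraries, at 249, 244 and 192 CPM, lay between these and overlapped both. The call was lost without TL3d replicate 1 (q = 0.0535). ADAMTS6 (gene ID 100355552, chromosome 11, 81327330 to 81645253, minus strand), which acts on fibrillin microfibrils, was at 5.08, 7.55 and 3.29 CPM in the control libraries. It was at 1.61, 1.25 and 1.32 CPM at 3 hours, below every control library (log2 fold change -1.93, q = 0.0562), and at 4.47, 7.98 and 18.6 CPM at 3 days (log2 difference 2.89, SE 0.761, q = 0.0138). Against the control at 3 hours it passed under 8 of 21 alternatives, among them DESeq2 (q = 0.0127) and only the 6 libraries compared (q = 0.00816). The ADAMTS6 call from 3 hours to 3 days held under all 21 alternatives. ADAMTS13, the protease of von Willebrand factor, held no count in any TL3h library and 17, 13 and 5 counts at 3 days (q = 0.00575). Its mean at 3 days was 2.59-fold the highest TL3h floor of 3 counts, which leaves out the spread of the TL3d libraries. It passed the member rule only through TL3d and TL14d libraries, so its selection favoured this call.

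Of the other lists, 0 of 8 inhibitors were higher and 2 lower from 3 hours to 3 days. SDC4 was back at 783, 655 and 347 CPM (log2 difference -2.58, q = 0.000671), and TIMP2, another inhibitor, had a log2 difference of -1.97 (q = 0.0483). TIMP2 was not called under library size alone (q = 0.0875), and its call was lost without control replicate 2, any TL3h or TL14d library, or TL3d replicate 1 or 2 (q between 0.0509 and 0.150). Of the 12 genes of activation and trafficking 1 was higher, RHBDF2 (1.04, q = 0.0120), and 1 lower, PCSK7 (-1.25, q = 0.000772). Of the 22 cell surface substrates 3 were higher and 8 lower, which is 50% beside 37.3% of all genes, among the lower ones IL6R, AREG and HBEGF. IL6R was at 86.1 ± 13.7 CPM at 3 days (SD, n = 3; log2 difference -2.06, q = 0.000648), a call that held under all 21 alternatives. AREG (-3.12, q = 0.0439) and HBEGF (-2.68, q = 0.0434) lost theirs under library size alone and without any 1 of the control or TL3h libraries or TL3d replicate 2 or 3, and AREG also without TL14d replicate 3 (q between 0.0521 and 0.163). VCAM1, an adhesion molecule of activated endothelium, was higher, at 0.68 CPM on average at 3 hours and 10.4 CPM at 3 days (log2 difference 3.93, q = 0.00836). Of the 14 matrix substrates 2 were lower, COL2A1 and DCN, the latter a small proteoglycan of fibroblasts that is also in the fibroblast marker list. The DCN call was lost without any 1 of the TL3h libraries or TL3d replicate 1 or 2 (q between 0.0538 and 0.115).

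At 14 days, 0 members passed in edgeR, and neither did any other gene (0% of 14835). At an unadjusted p under 0.05 there were 6 members and 1538 of all genes, and DESeq2 called 5 members among 367 genes, 79.0% of them higher. The smallest q was 0.346. The 6 members were ADAM19, ADAMTS6, ADAMTS13, ADAMTS14, ADAMTS17 and ADAMTS18, each higher in TL14d. The libraries of TL14d were not alike. ADAMTS17, in which mutations cause a Weill-Marchesani-like syndrome of eye and skeleton, was at 0.451, 1.25 and 3.99 CPM in the control libraries and at 1.51, 89.3 and 63.5 CPM at 14 days. ADAMTS18, in which mutations cause microcornea, was at 1.14, 2.95 and 0.552 CPM in the control libraries, 0.192 to 0.366 CPM at 3 hours, and 1.85, 44.7 and 76.9 CPM at 14 days. ADAMTS6 was at 7.30, 44.8 and 63.2 CPM and ADAM19 at 5.55, 227 and 90.9 CPM at 14 days. For each of these, TL14d replicate 1 lay within the control range and replicates 2 and 3 lay above every control library.

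The same division held for 2 members with fewer counts or a wider control group. ADAMTS14 was at 0.370, 6.58 and 8.04 CPM at 14 days. ADAM12, or meltrin alpha, was at 2.40, 9.11 and 55.9 CPM in the control libraries and at 5.48, 77.9 and 187 CPM at 14 days. ADAM12 was also at 15.4, 65.7 and 243 CPM at 3 days, and did not pass at any time. ADAMTS20, outside the rule, had 2 counts in TL14d replicate 1 and 95 and 105 in replicates 2 and 3. Without TL14d replicate 1, 5 members were called at 14 days, all higher, among 716 genes called in that setting, 74.2% of them higher. They were ADAM19 (log2 fold change 4.48, q = 0.0104), ADAMTS6 (3.34, q = 0.0159), ADAMTS18 (5.29, q = 0.0286), ADAMTS17 (5.33, q = 0.0348) and ADAMTS13 (3.41, q = 0.0488). The removal leaves 2 libraries at 14 days. TL14d replicate 1 also differed from replicates 2 and 3 in summed smooth muscle and pericyte markers, at 26.6 CPM against 632 and 1014 CPM, and control libraries had 26.0 to 132 CPM. Summed neutrophil markers were 3.36 CPM in that library against 114 and 102 CPM. The part of these cells in the members' levels was not tested. The other pathway lists had 0 calls at 14 days in the main edgeR fit. DESeq2 called 3 of 22 cell surface substrates, 3 of 14 matrix substrates and 1 of 6 microfibril partners, which had 3, 4 and 1 genes with an unadjusted p under 0.05, and none of the inhibitors (1 such gene) or of the activation list (3 such genes).

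**Figure D4:**
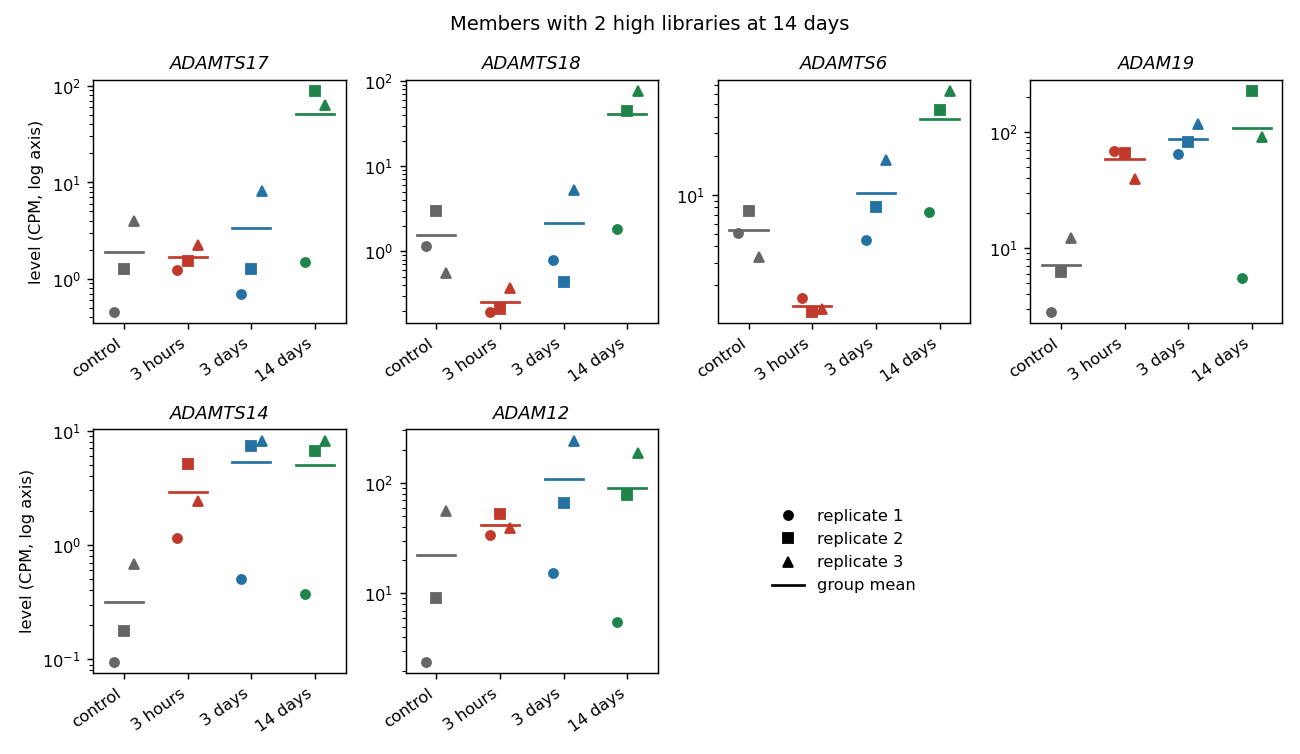
Level in CPM (log axes) of 6 members in each of the 12 libraries (symbols give the replicate, bars the group mean, n = 3). At 14 days replicate 1 lies within the control range for each gene, and replicates 2 and 3 lie above all control libraries.

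By the group in which the mean level was highest, 15 members (41.7%) peaked at 3 hours, 11 (30.6%) at 14 days, 6 (16.7%) at 3 days and 4 (11.1%) in the control group, beside 38.1%, 18.2%, 20.1% and 23.5% of all genes tested. On the FPKM values, which have no TMM correction, the corresponding counts of members were 10 at 3 hours, 12 at 14 days, 6 at 3 days and 8 in the control group. The members with the highest mean CPM at 3 hours included the 6 that cut aggrecan or versican, but by FPKM ADAMTS5 was highest in the control group, at 7.29 against 6.99 FPKM at 3 hours. Those with the highest mean at 14 days included ADAMTS6, ADAMTS10, ADAMTS17, ADAMTS18 and ADAMTS19, which are 5 of the 6 members placed in none of the better known ADAMTS groups, and the sixth, ADAMTS16, peaked at 3 hours by CPM and in the control group by FPKM. No test was made of these orders. The levels of other members had these ranges. ADAM15, a membrane protease with an integrin-binding motif, was between 72.7 and 113 CPM in the 12 libraries, ADAM28 between 5.98 and 17.0 CPM and ADAM22, which has no protease activity and binds LGI1 in nerve, between 2.68 and 8.53 CPM. ADAM2 and ADAM18, known from sperm, stayed at or below 2.28 CPM, as did ADAM23, ADAMDEC1, ADAM21 and ADAMTS13. ADAMTS3 and ADAMTS7 stayed at or below 12.5 and 35.9 CPM, ADAMTS10 and ADAMTS19 at or below 20.8 and 22.0 CPM, and ADAM33 at or below 27.4 CPM. ADAMTSL3 ranged from 2.01 to 86.8 CPM.

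ADAMTS9 also changed in which of its transcripts the counts were given to. The authors' transcript table lists 5 for this gene, of 6909 to 7251 bases. The longest held 92.5, 84.6 and 82.9% of the gene's counts in the control libraries, 40.2, 50.3 and 54.9% at 3 hours, 80.7, 94.2 and 82.4% at 3 days, and 97.2, 89.3 and 87.6% at 14 days. No TL3h library overlapped any other library. Expressed as levels, the longest transcript went from 33.3 ± 20.6 CPM (control) to 95.6 ± 38.3 CPM (TL3h), and the other 4 together stood at 5.78 ± 5.30 and 98.6 ± 29.0 CPM (SD, n = 3 each). These are estimated shares of reads that overlapping transcripts have in common, and no test of them was made. In ADAM8, the transcript of 2725 bases held 25.7 to 31.9% in the control libraries, 15 to 18.5% at 3 hours, 21.8 to 26.8% at 3 days and 14.3 to 28.4% at 14 days, so that TL14d replicate 1 was lower than every TL3h library. In ADAMTSL1 the transcript of 7810 bases held 61.1 to 69.8% in the control libraries, 77.0 to 80.5% at 3 hours, 61.6 to 66.5% at 3 days and 59.3 to 66.6% at 14 days. These genes were chosen after their values were seen.

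**Figure D5:**
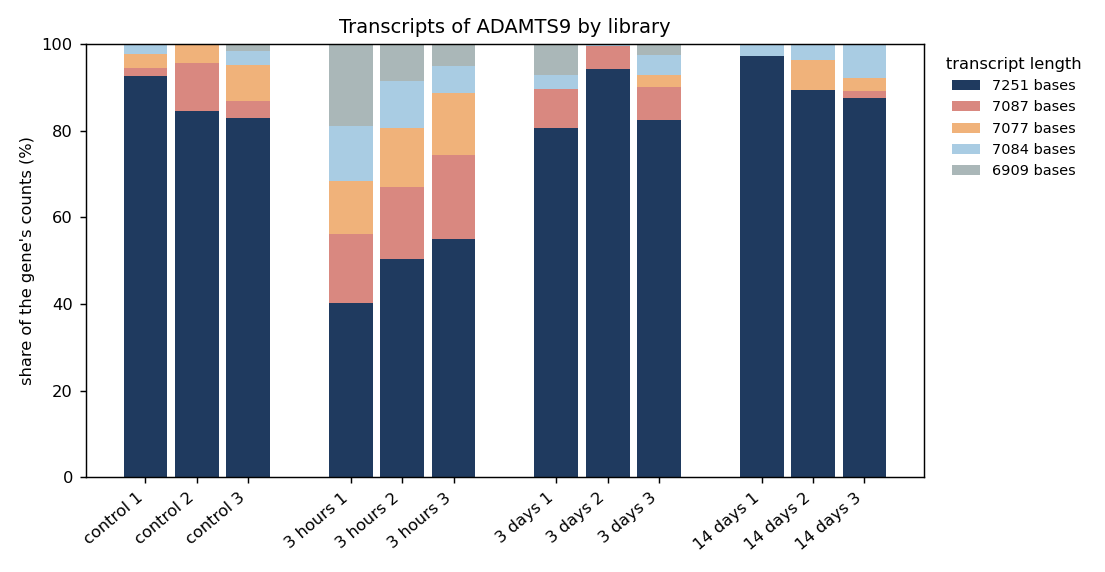
Share (%) of the ADAMTS9 counts that the authors' table gives to each of 5 transcripts, named by length, in each of the 12 libraries. The longest transcript holds 40.2 to 54.9% at 3 hours and 80.7 to 97.2% in each of the remaining 9 libraries.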

How the data were processed

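Conjunctiva of 12 eyes was analysed by RNA sequencing. Libraries were stranded mRNA libraries, and the strand setting used in counting is not given in the sources used here. Paired-end reads of 150 bp were aligned by the authors to OryCun2.0 with STAR (version 2.6.0c in the submitters' processing notes). For each gene and transcript they deposited estimated counts and FPKM values. Of the gene counts 23.4% were fractions. How reads shared by several genes were divided is not given there, so related members are less certain where counts are fractions.

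Counts were rounded. filterByExpr (minimum count 10, minimum total count 15) kept 14835 genes. All 12 libraries entered 1 quasi-likelihood fit in edgeR 4.0.16 (R 4.3.3) with TMM, a prior count of 0.125 and Benjamini-Hochberg adjustment over all genes tested, with a threshold of 0.05. SE is the log2 fold change over the root of F. Deposited FPKM values served only to compare levels between genes. Members past the threshold in at least 1 comparison with a mean of at least 1 CPM in a group were to be named with values, and at most 4 called genes per pathway list. Floors are 3 counts per library, for 95% confidence, and cover counting error only. The members and lists were chosen with earlier results of these data known. The script was tested on simulated data. Alternatives were DESeq2 1.42.0 and its size factors, library size alone, other filters, only the 6 libraries compared, a replicate block, and leaving out libraries. No sequences were used here. One gene of the cell surface list is counted but not reported here by name.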

Additional observations from a re-analysis of the deposited data

Results flagged for a closer look

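Effects at 3 hours and 3 days differed, by the edgeR test of TL3d against TL3h, for 9 members. The log2 differences were -4.64 for ADAMTS4, -3.23 for ADAMTS9, -2.87 for ADAMTS15, -2.09 for ADAMTSL4, -1.57 for ADAM8, -0.69 for ADAM9, 0.87 for ADAM10, 2.89 for ADAMTS6 and 6.46 for ADAMTS13. The value of ADAMTS13 depends on the prior count, since TL3h held no count, and the gene passed the member rule only through TL3d and TL14d libraries.

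For ADAMTS15 and ADAM9, every TL3h library lay on 1 side of all control libraries and every TL14d library on the other, by CPM with TMM. By the authors' FPKM, which have no TMM correction, the TL3h and control libraries of both genes overlapped. ADAMTS15 passed at neither time (q = 0.355 at 3 hours and 0.578 at 14 days), and ADAM9 did not pass at 14 days (q = 0.619). The log2 fold change at 14 days minus that at 3 hours was -2.18 for ADAMTS15 and -0.80 for ADAM9. These differences were not tested. The same difference was 7.04 for ADAMTS13, which held 1 to 4 counts per control library and 0 at 3 hours. These counts lie around the floor, so neither a direction at 3 hours nor a size can be read from it.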

How the results depend on the processing

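The alternatives, 20 for ADAM21 and ADAMTS13 and 21 for the others, gave the same sign for all 41 member results with an unadjusted p under 0.05, called or not. Of the 103 other results, 52 changed sign under at least 1 alternative and 21 passed the threshold under at least 1. Normalization by library size alone lowered the median of all genes at 3 hours to -0.47, with 25.0% of the called genes higher against 51.0% with TMM. At 3 days against 3 hours it raised the median to 0.43, with 80.5% of the called genes higher, and 7 members were higher and 4 lower. Of the members 6 changed sign at 3 hours, none of them called. DESeq2 called 9 members among 4471 genes at 3 days (4 higher, 5 lower) and 5 among 367 genes at 14 days, against 2 and 0 members. With 1 library left out, the counts ranged from 4 to 12 at 3 hours, 0 to 7 at 3 days, 0 to 5 at 14 days and 7 to 12 from 3 hours to 3 days. At 3 hours the count was 5 without control replicate 1 or any 1 TL3h library, and 4 without control replicate 2. At 3 days it was 0 without control replicate 1 or 2 or TL3d replicate 1 or 2, 1 without any TL3h library, 6 without TL3d replicate 3, 7 without TL14d replicate 1 and 4 without TL14d replicate 2. At 14 days it was 5 without TL14d replicate 1 and 0 otherwise. Without control replicate 3 and TL14d replicate 1 together the counts were 14, 6, 5 and 10. Without control replicate 3 and TL3d replicate 3 together, chosen after seeing the data, they were 12, 2, 0 and 17. The cause was not tested. Whether replicate numbers pair the samples cannot be decided from the correlations of deviations, since their ranges overlapped. Of 18 same-numbered pairs 8 had a correlation over 0.1 (range -0.171 to 0.502), and the range of the other pairs was -0.554 to 0.416. With the replicate number as a block, 10, 4, 0 and 13 members were called, among 6946, 2719, 0 and 5831 genes, and the calls of TSPAN5 at 3 hours and of COL2A1 and AREG at 3 days and of HBEGF from 3 hours to 3 days were lost, while VCAN was called at 3 hours and 3 days. Depth limits ADAM21, ADAMTS13 and ADAMTS20, which lie near 10 counts or under it in most libraries.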
